A study of Homo sapiens with 6 samples.

Results

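The experiment set RNA of ovarian carcinoma cells that received the anti-IL-6 antibody siltuximab and then interleukin-6 (IL-6) against RNA of untreated cells, in 2 cell lines. Its members were the arrays labelled as given CNTO328, the code name of siltuximab, and IL-6, against the arrays labelled with the name of the line alone, which gave 4 of the 6 arrays of the series, 2 a side. SKOV-3 and Caov-3 are established human ovarian carcinoma lines grown as adherent cultures. On the treated side, per the labels, cells stood with siltuximab for 4 h and then received IL-6 at 30 ng/ml for 1 h. The labels used here give no dose of the antibody, and an array with siltuximab but without IL-6 was not analysed here, so that an effect of the antibody itself and one of IL-6 that escaped it cannot be told apart. On the other side the cells were untreated. The 2 arrays with IL-6 alone were left out of the comparison. RNA of 3 flasks was pooled for each array, so that each of the 4 groups was 1 array with no replicate. The 2 lines were the only repeats of the treatment, and the small number of arrays limits how precise any value can be.

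IL-6 binds its receptor, and the pair then engages the shared signalling chain gp130 (IL6ST), which activates Janus kinases and the transcription factor STAT3. STAT3 induces early genes within the hour, among them SOCS3, a feedback inhibitor of the same receptor. Siltuximab binds IL-6 itself and keeps it from the receptor, and the comparison asked what stood apart from untreated cells when the cytokine was given after the antibody. IFIT2, an interferon-induced protein that restrains viral translation, and XBP1, a transcription factor of the response to unfolded proteins in the endoplasmic reticulum, were given as markers of the comparison.

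Signal was measured on Affymetrix U133 Plus 2.0 arrays, on which a gene is read by 1 or more probe sets of short oligonucleotides. Values are deposited signal intensities, and folds are log2 differences after adding 17.06 to each signal, which understates the folds of dim genes. A gene was read by its brightest probe set over all arrays of the series, those with IL-6 alone included. It was kept if its mean signal in a line reached the array median in both lines, which left 10762 of 19775 genes. The trimmed mean was 500.06 to 500.07 on all 4 arrays and the median signal 75.7 to 89.6. Arrays of the treated and the untreated cells correlated across genes, with r = 0.9885 in SKOV-3 and r = 0.9892 in Caov-3. The 5' to 3' ratio of the ACTB control, which follows RNA integrity, was 0.767 with siltuximab plus IL-6 and 0.735 untreated in SKOV-3, and 0.643 and 0.66 in the same order in Caov-3. Poly-A control transcripts spiked in ahead of labelling stood at 1.02 times their untreated level on the treated SKOV-3 array and at 1.17 times on the treated Caov-3 array.

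The arrays were checked against markers of epithelial carcinoma. In Caov-3, 10 of 11 such markers lay above the array median, WT1 being the exception. In SKOV-3, 7 of 11 did, and the adhesion molecule CDH1, the keratin KRT19, the antigen MUC16 and WT1 lay below it on both arrays, KRT19 at 57.9 treated and 4.37 untreated and the other 3 at 3.05 to 27.5. Summed over the 11 markers, signal was 45507 with siltuximab plus IL-6 and 51989.6 untreated in SKOV-3, and 101835 and 104816 in the same order in Caov-3. Of 6 leukocyte markers CD14 alone lay above the median, the summed signal being 217.6 treated and 302.1 untreated in SKOV-3 and 771.3 treated and 827.9 untreated in Caov-3. The pan-leukocyte gene PTPRC, at 1.96 to 35.1, lay below the median throughout. Of 8 fibroblast and endothelium markers COL1A1 and PECAM1 lay above it, and the summed signal was 541.4 treated and 620.6 untreated in SKOV-3, and 5874 treated and 5173 untreated in Caov-3.

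Both marker genes stood above their untreated level in each line. IFIT2 had a signal of 6159 in SKOV-3 and of 4539 in Caov-3 with siltuximab plus IL-6, against 4618 in SKOV-3 and 2644 in Caov-3 untreated. Each treated array was above the untreated array of its line, although the treated Caov-3 array lay just below untreated SKOV-3, so that the groups overlapped across lines. The log2 folds were 0.41 in SKOV-3 and 0.78 in Caov-3. XBP1 had a signal of 1448 in SKOV-3 and of 2877 in Caov-3 with siltuximab plus IL-6, against 1102 in SKOV-3 and 2121 in Caov-3 untreated. It was the higher in each treated array at close to the same fold, with log2 folds of 0.39 and 0.44, and the groups again overlapped across lines because Caov-3 held more XBP1 than SKOV-3.

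Neither gene passed the test over both lines. That test was limma fitted to the 4 arrays with line as a block and a trended prior variance, with Benjamini-Hochberg adjustment over all 10762 genes and a call at an adjusted p under 0.05. IFIT2 had a log2 difference of 0.60 (SE 0.0936) with an adjusted p of 0.0742, and XBP1 one of 0.41 (SE 0.0873) with an adjusted p of 0.121. Over the 13 alternative settings the adjusted p of IFIT2 ran from 0.00784 to 1, with 3 settings under 0.05, and that of XBP1 from 0.0517 to 1, with 0 under 0.05.

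Further probe sets of these genes stood apart from the brightest. The second probe set of IFIT2 read 1636 in SKOV-3 and 1426 in Caov-3 with siltuximab plus IL-6, against 1739 in SKOV-3 and 1260 in Caov-3 untreated, log2 folds of -0.09 and 0.18. The second probe set of XBP1 did not pass the filter in SKOV-3, where it read 54.2 treated and 106.5 untreated, a log2 fold of -0.79. In Caov-3 it read 234.1 treated and 209.9 untreated, above the array medians, a fold of 0.15. The second probe set of each gene thus stood below untreated in SKOV-3 and slightly above it in Caov-3. In these cultures fewer cells that express a gene and less RNA per cell cannot be told apart.

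The promoter of XBP1 is shown because it holds the composite element through which the unfolded protein response acts on its genes, and those of FUBP3, MAGOHB and PAK1IP1 because they were the promoters of genes higher in both lines that held an interferon or STAT element. Sequences are from RefSeq (GRCh38.p14), 250 bases before to 50 bases after the gene start, read 5′ to 3′ on the strand of the gene, with the matched element in capitals. They lie at chr22:28800520-28800819 on the minus strand (XBP1), chr9:130579327-130579626 on the plus strand (FUBP3), chr12:10612929-10613228 on the minus strand (MAGOHB) and chr6:10694722-10695021 on the plus strand (PAK1IP1).
XBP1: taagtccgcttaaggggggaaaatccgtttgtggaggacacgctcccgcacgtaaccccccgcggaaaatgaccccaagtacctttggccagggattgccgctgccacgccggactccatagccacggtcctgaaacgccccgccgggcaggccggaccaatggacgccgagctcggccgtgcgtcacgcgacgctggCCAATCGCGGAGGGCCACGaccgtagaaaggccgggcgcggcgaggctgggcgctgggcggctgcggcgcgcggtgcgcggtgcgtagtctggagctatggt
FUBP3: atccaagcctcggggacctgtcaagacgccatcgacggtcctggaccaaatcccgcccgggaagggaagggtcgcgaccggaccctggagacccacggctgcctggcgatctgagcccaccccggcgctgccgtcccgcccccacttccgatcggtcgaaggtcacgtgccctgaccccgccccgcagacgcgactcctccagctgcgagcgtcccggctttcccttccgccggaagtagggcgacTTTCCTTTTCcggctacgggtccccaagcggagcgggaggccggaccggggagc
MAGOHB: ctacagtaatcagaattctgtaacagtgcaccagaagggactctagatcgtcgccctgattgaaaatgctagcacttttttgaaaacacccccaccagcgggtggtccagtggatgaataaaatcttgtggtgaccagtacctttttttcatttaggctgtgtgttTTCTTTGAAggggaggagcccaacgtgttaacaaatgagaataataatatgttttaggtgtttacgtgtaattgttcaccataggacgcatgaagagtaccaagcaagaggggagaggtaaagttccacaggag
PAK1IP1: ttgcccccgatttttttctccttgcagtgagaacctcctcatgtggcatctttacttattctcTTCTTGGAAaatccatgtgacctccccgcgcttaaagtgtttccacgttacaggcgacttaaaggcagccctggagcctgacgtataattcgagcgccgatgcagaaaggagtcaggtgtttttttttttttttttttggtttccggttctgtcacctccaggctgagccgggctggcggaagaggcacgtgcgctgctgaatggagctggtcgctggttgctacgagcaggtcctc
The element in XBP1, CCAAT and CCACG with 9 bases of any kind between them, begins 52 bases before the gene start and was in 0.0806% of 27305 promoters of this length, searched on both strands. The element in FUBP3 is the interferon-stimulated response element, GAAA repeated after any 2 bases, on the opposite strand 4 bases before the start, and 3.65% of promoters held one. The STAT element TTCNNNGAA reads alike on both strands, lies 84 bases before the start in MAGOHB and 187 before it in PAK1IP1, and was in 7.88% of promoters. Among 8893 promoters of genes above the filter, 0.146% held the XBP1 element, 2.82% the interferon element and 6.22% the STAT element. Of the 20 genes described below as higher in both lines, 15 had a promoter sequence, of which 1 held the interferon element and 2 the STAT element. Of the 24 lower genes 17 had one, of which 0 held the interferon element and 2 the STAT element, KIAA0586 and ZNF582. A match of letters is a description of the sequence and not a site of binding.

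Over all genes, folds in the 2 lines were small and related only in part. In SKOV-3, 186 genes (1.73%) reached 1.5-fold above untreated and 329 (3.06%) reached 1.5-fold below it. In Caov-3, 238 (2.21%) were higher and 201 (1.87%) lower. These counts compare 1 array with 1 array and have no replicate check. Median folds were -0.02 in SKOV-3 and -0.0045 in Caov-3. Taken across genes, and genes are no independent replicates, Pearson's r between the lines was 0.1575 and Spearman's coefficient 0.2147. The 2 folds share no array but do share the platform and the expression level of each gene.

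Reaching 1.5-fold the same way in both lines were 44 genes (0.409%), with 20 higher (0.186%) and 24 lower (0.223%). Another 32 genes (0.297%) reached it in opposite ways. By any amount, 26.9% of genes were higher in both lines and 32.4% lower in both. The 20 higher genes ranged over mitochondrial assembly, transcription, vesicle coats and cell polarity, 19 of them being protein-coding, and 9 were also called by limma. The 24 lower genes, 23 of them protein-coding, were mostly dim, and 1 was called.

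**Figure D1:**
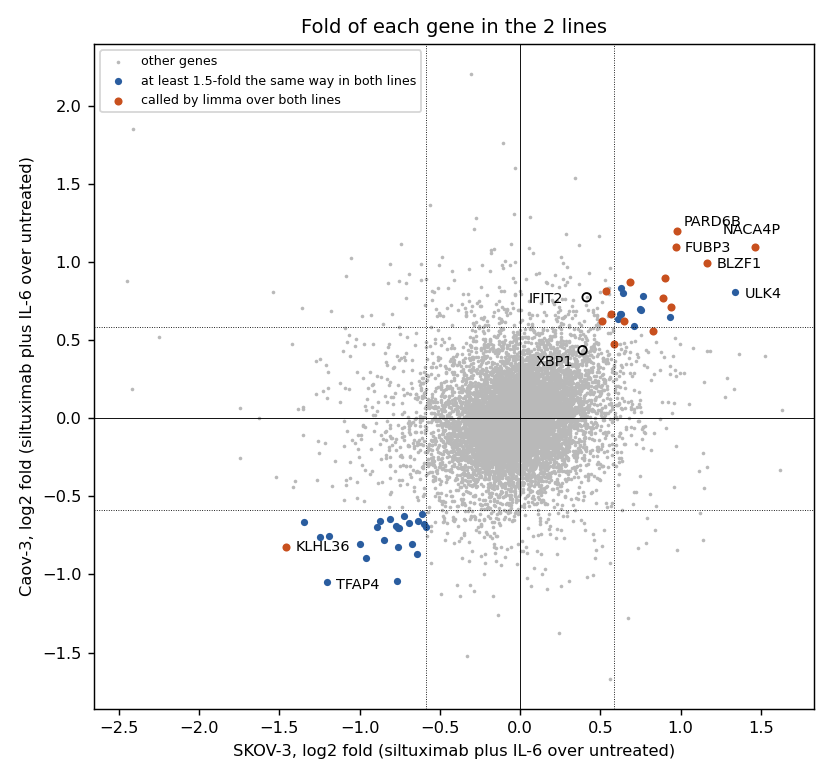
Log2 fold, siltuximab plus IL-6 over untreated, for each of 10762 genes, SKOV-3 on the horizontal axis and Caov-3 on the vertical axis, with dotted lines at 1.5-fold. Genes past 1.5-fold in one direction in each line are blue and the 15 genes called by limma orange. Open circles mark IFIT2 and XBP1, which lie to the upper right of the cloud. IFIT2 falls short of the 1.5-fold limit in SKOV-3 and XBP1 in both lines.

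The limma fit called 15 genes (0.139%), with 14 higher (0.13%) and 1 lower (0.00929%). All 15 stood on the same side in both lines, and 10 of them reached 1.5-fold in each. The calls rested on 1 residual degree of freedom and on the trended prior (7.98 prior degrees of freedom), and 0 genes were called with all 6 arrays in the fit, without the trend, without line as a block, without the filter on dim genes or after quantile normalization. At an unadjusted p under 0.05 stood 1353 genes (12.6%), with 663 higher (6.16%) and 690 lower (6.41%).

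Among the genes that rose, 3 are given first for their roles in transcription or nucleic acid binding, not by rank. FUBP3, which binds single-stranded nucleic acid and is a relative of an activator of MYC, read 3715 in SKOV-3 and 2398 in Caov-3 with siltuximab plus IL-6, against 1887 in SKOV-3 and 1111 in Caov-3 untreated. Both treated arrays were above both untreated arrays. The log2 difference over both lines was 1.03 (SE 0.0856, limma adjusted p 0.00399). GTF2H3, a subunit of the repair and transcription factor TFIIH, read 2919 in SKOV-3 and 1906 in Caov-3 with siltuximab plus IL-6, against 1516 in SKOV-3 and 1154 in Caov-3 untreated. Here too the groups did not overlap, and the difference was 0.83 (SE 0.0946, limma adjusted p 0.0236). CRCP, a subunit of RNA polymerase III that also couples a peptide receptor, had log2 folds of 0.90 in each line and the weakest of the 15 calls (limma adjusted p 0.0477).

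NACA4P had the smallest p of the fit. It is a transcribed pseudogene of a chaperone of nascent proteins and was read by 1 probe set of the _x_at kind, whose probes can also detect related sequences, so that its source is uncertain. Its signal was 11667 in SKOV-3 and 7519.7 in Caov-3 with siltuximab plus IL-6, against 4221 in SKOV-3 and 3505 in Caov-3 untreated. The treated arrays lay well above both untreated ones, and the log2 difference was 1.28 (SE 0.0921, limma adjusted p 0.00239).

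Of the other genes that rose, CMC1, which takes part in the assembly of cytochrome c oxidase, read 3521 in SKOV-3 and 1777 in Caov-3 with siltuximab plus IL-6, against 1892 in SKOV-3 and 1032 in Caov-3 untreated, and its difference was 0.83 (SE 0.0877, limma adjusted p 0.0202). The treated array was the higher within each line, while treated Caov-3 lay below untreated SKOV-3. PARD6B, a scaffold of the complex that sets apical polarity in epithelia, read 786.4 in SKOV-3 and 1706 in Caov-3 with siltuximab plus IL-6, against 391.7 in SKOV-3 and 732.4 in Caov-3 untreated, and both treated arrays were above both untreated ones. Its difference was 1.09 (SE 0.124, limma adjusted p 0.0236). YRDC, an enzyme that modifies tRNA, was nearly the same in the 2 lines, with a signal of 3139 in SKOV-3 and of 3104 in Caov-3 with siltuximab plus IL-6, against 1996 in SKOV-3 and 2008 in Caov-3 untreated. This gave the closest pair of folds after CRCP among the 15, 0.65 and 0.62, and a limma adjusted p of 0.036.

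The limma adjusted p of the other genes that rose lay between 0.036 and 0.0429. ASPH, a hydroxylase of the endoplasmic reticulum that acts on growth factor-like domains, had log2 folds of 0.51 in SKOV-3 and of 0.62 in Caov-3. RAP1A, a small GTPase of cell adhesion, had 0.53 and 0.82, and SLC35F5, of a family of nucleotide sugar transporters, 0.57 and 0.67. The Golgi structure protein BLZF1 had 1.17 and 0.998 and was the largest of this group. MAD2L1, which holds the spindle checkpoint, had 0.58 and 0.47, the centrosomal CEP57 0.83 and 0.56, and DEPDC1B, a protein of mitotic cells, 0.68 and 0.87.

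KLHL36 alone fell. It belongs to the kelch-like family, members of which bring substrates to a ubiquitin ligase, and read 487.3 in SKOV-3 and 689.9 in Caov-3 with siltuximab plus IL-6, against 1369 in SKOV-3 and 1235 in Caov-3 untreated. Both treated arrays lay well below both untreated arrays, and the log2 difference was -1.14 (SE 0.155, limma adjusted p 0.036).

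**Figure D2:**
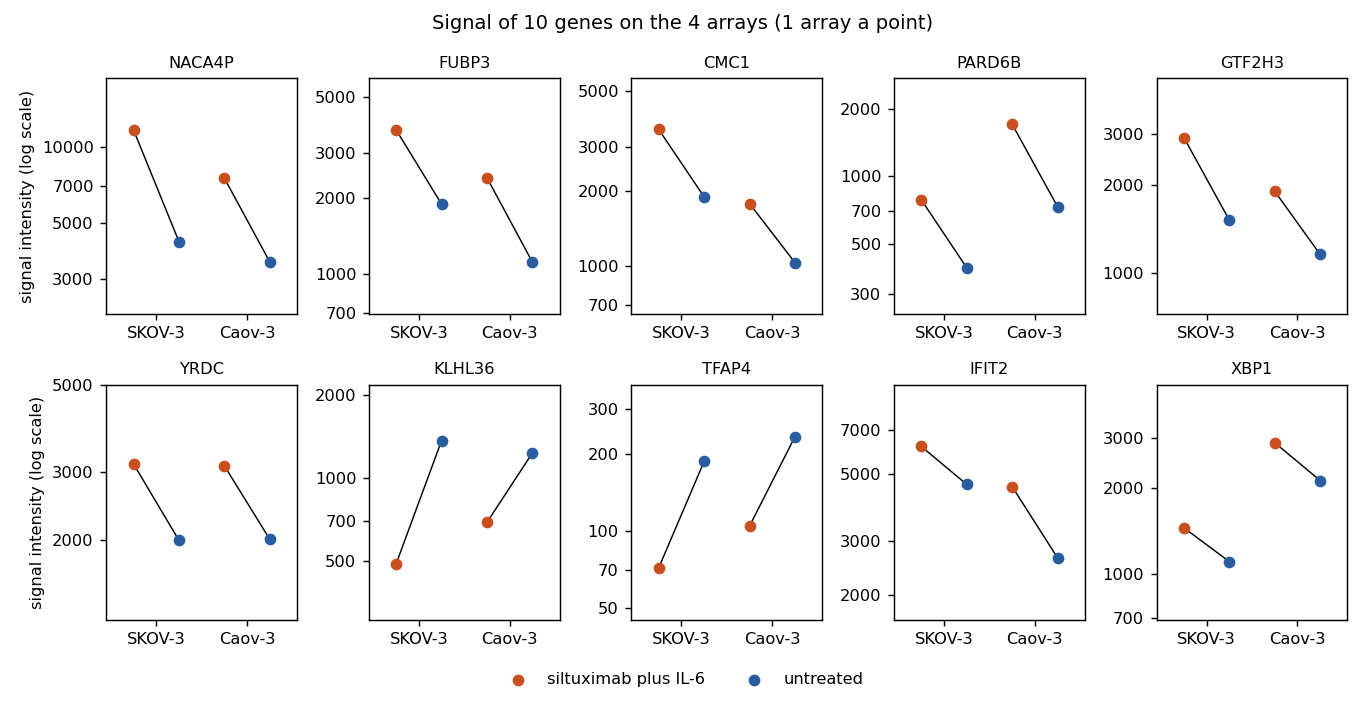
Signal intensity of 10 genes on the 4 arrays, on log axes, with siltuximab plus IL-6 (orange) to the left of untreated (blue) in each line and a line joining the 2 arrays of a cell line. Each point is 1 array, so that no error bar can be drawn; KLHL36 and TFAP4 were lower with treatment in each line and the other 8 genes higher.

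Some genes that reached 1.5-fold in both lines without a call were read at low signal. ULK4, a kinase-like gene, read 157.0 in SKOV-3 and 320.5 in Caov-3 with siltuximab plus IL-6, against 51.6 in SKOV-3 and 175.8 in Caov-3 untreated, and had a limma adjusted p of 0.168. The groups overlapped across lines, since untreated Caov-3 was above treated SKOV-3. CSTF1, of the complex that cleaves the 3′ end of messenger RNA, was brighter, reading 1598 in SKOV-3 and 1195 in Caov-3 treated, against 1031 in SKOV-3 and 746.0 in Caov-3 untreated, and also had no call (limma adjusted p 0.0766). The ubiquitin ligase ZNRF2 had log2 folds of 0.77 in SKOV-3 and of 0.78 in Caov-3 (limma adjusted p 0.0926), the COPII coat gene SEC24D 0.75 and 0.70, and the collagen receptor kinase DDR2 0.75 and 0.70 at a signal of 66.8 to 147.6.

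Of the 24 lower genes, 9 had a treated array under the median of that array (CTDP1, HOXC5, KCNS1, MR1, NAPSA, SCAND2P, SIGLEC15, TFAP4 and WNT2B), and of the 20 higher genes 4 had an untreated array under it (DDR2, GPR173, NUTM1 and ULK4). Such genes passed the filter through the group in which they were high, so that their folds are given as a description. With all 4 arrays required at the median, 16 genes were higher, 15 lower and 14 opposite. TFAP4, a helix-loop-helix transcription factor, read 71.7 in SKOV-3 and 104.7 in Caov-3 with siltuximab plus IL-6, against 187.7 in SKOV-3 and 234.7 in Caov-3 untreated, so that both treated arrays were below both untreated ones, and its limma adjusted p was 0.146. LMF1, which matures lipases, read 176.4 in SKOV-3 and 148.4 in Caov-3 with siltuximab plus IL-6, against 359.3 in SKOV-3 and 291.1 in Caov-3 untreated, again without overlap. Log2 folds were -1.19 and -0.75 for the acetylcholine receptor subunit CHRNB2, -1.0002 and -0.80 for the ciliary rootlet gene CROCC, and -0.77 and -1.04 for the lectin SIGLEC15. The Wnt ligand WNT2B stood at -1.25 and -0.76, and INCENP, of the chromosomal passenger complex, at -0.76 and -0.70. KLHL36 was the only one of the 24 lower genes to pass the limma test.

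Just inside the limit the higher genes were GPR173, MAGOHB and YRDC, with a smaller fold of 0.59 for GPR173, and just outside it CEP57, LATS1 and SLC35F5, with a smaller fold of 0.56 for CEP57. On the lower side CDH22 was just inside at -0.59, with MTIF3 and ISY1, and EXTL3 just outside at -0.57, with BAHCC1 and TAPT1-AS1.

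The higher and the lower genes lay at different levels of expression. Mean signal had a median of 676.4 over the 20 higher genes (99.28 to 6004) and of 141.2 over the 24 lower genes (87.44 to 869.88), against 902.7 over all genes. All 24 lower genes and 12 of the 20 higher genes fell in the dimmer part of the genes, below their median expression. Over 10 groups of genes by expression, the robust SD of the folds was 0.433 in SKOV-3 and 0.416 in Caov-3 in the dimmest group, and 0.148 and 0.142 in the brightest. The correlation of the folds of the 2 lines was -0.011 across genes of the dimmest group and 0.553 across those of the brightest.

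In the dimmest group 4 genes were higher in both lines, 16 lower in both and 26 opposite, whereas above group 5 there were 8 higher, 0 lower and 0 opposite. An unadjusted p under 0.05 was reached by 280 genes of the brightest group, 83 of them higher and 197 lower, and by 54 genes of the dimmest group, 17 of them higher and 37 lower. In the brightest group 49.3% of genes were lower in both lines, with median folds of -0.07 in SKOV-3 and of -0.04 in Caov-3. After quantile normalization the differences over both lines of ACTB, B2M, HSPD1 and PPIA, of this group, were 0.0088 to 0.026. Those of GAPDH and LDHA, of the same group, did not turn. The shares of the group were not counted under that scaling.

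**Figure D3:**
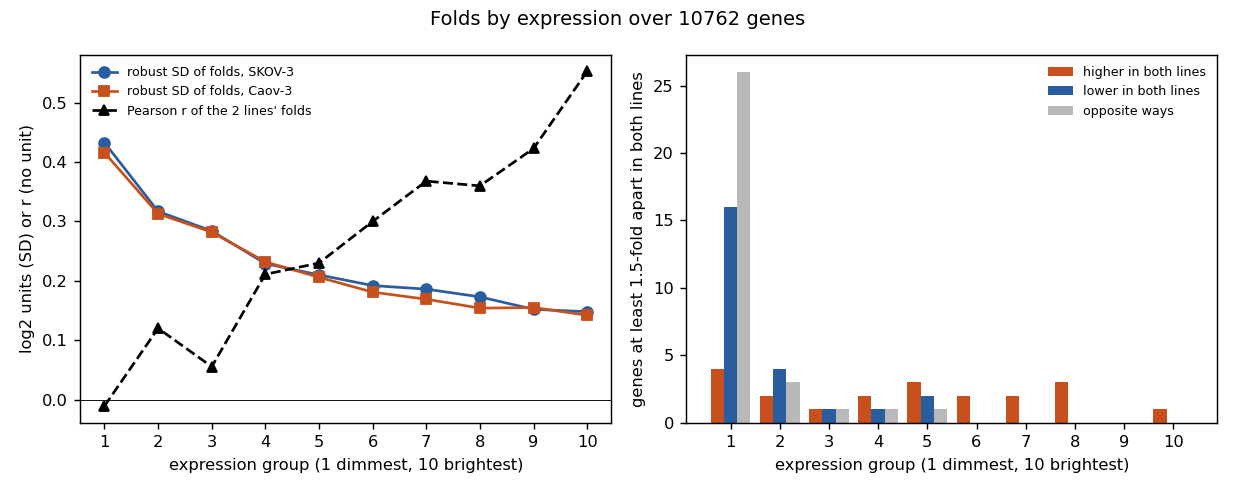
Left, robust SD of the log2 folds in each line and Pearson correlation of the folds of the 2 lines, over 10 groups of genes from dimmest to brightest. Right, number of genes past 1.5-fold, higher in both lines, lower in both or opposite ways in each group; 26 of the 32 opposite genes and 16 of the 24 lower genes are in the dimmest group, while higher genes spread up to the brightest.

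Whether the probe sets of a gene gave folds on the same side was asked of 5270 genes with at least 2 probe sets above the array median in both lines. Probe sets of a gene share the RNA and the array and are not replicates of the treatment. The second brightest probe set lay on the side of the brightest in 53.3% of genes in SKOV-3 and in 52.1% in Caov-3. In both lines it did so in 1497 genes (28.4%). Folds of the 2 probe sets correlated only weakly across genes, with r = 0.0815 in SKOV-3 and r = 0.0412 in Caov-3. Where the second probe set was itself in the brightest of 3 equal groups of second probe sets, the share was 31.6% and the correlations were 0.16 and 0.135, and in the dimmest group they were 26.2%, 0.0701 and 0.0182. Among genes whose brightest probe set was higher in both lines, the second was too in 435 of 1489 (29.2%), and among those lower in both it was in 567 of 1720 (33%). Over all genes 26.9% were higher in both lines and 32.4% lower, so that both shares were near those of all genes.

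The genes called by limma were for the most part called on 1 probe set of several. Of the 15, 4 had a single probe set above the median (NACA4P, CMC1, PARD6B and DEPDC1B), and the other 11 had 21 further probe sets among them. Of these 21, 5 lay on the side of the brightest in both lines, 5 on the other side in both, and 0 reached 1.5-fold in both. Over the 5270 genes the second probe set lay on the side of the brightest in both lines in 28.4%. Such disagreement was thus not particular to the called genes. With the sign turned to that of the called probe set, the median fold of the 21 was -0.02 in SKOV-3 and 0.01 in Caov-3, and 16 lay within 0.3 of zero in both lines.

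ASPH showed this over 7 probe sets. Its brightest read 10193 in SKOV-3 and 4036 in Caov-3 with siltuximab plus IL-6, against 7155 in SKOV-3 and 2612 in Caov-3 untreated, whereas the next read 6409 in SKOV-3 and 2881 in Caov-3 treated, against 6479 in SKOV-3 and 2845 in Caov-3 untreated. The other 5 had folds of -0.09 to 0.18 in SKOV-3 and -0.26 to 0.31 in Caov-3. CEP57 had 5 probe sets, 0.83 and 0.56 by the brightest and at most 0.39 in SKOV-3 and below 0 in Caov-3 by the others. Its difference over both lines was -0.15 when the brightest probe set was chosen over the 4 arrays, and that of RAP1A -0.15 with the mean of all its probe sets. The second probe set of GTF2H3 gave -0.08 in SKOV-3 and 0.02 in Caov-3, that of SLC35F5 0.08 and 0.01, and that of CRCP -0.13 and -0.39.

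In FUBP3, BLZF1 and YRDC the second probe set stood in part on the called side. The second probe set of FUBP3 read 703.1 in SKOV-3 and 246.3 in Caov-3 with siltuximab plus IL-6, against 583.7 in SKOV-3 and 277.2 in Caov-3 untreated, folds of 0.26 and -0.16. That of BLZF1 gave 0.17 in SKOV-3 and 0.64 in Caov-3, and that of YRDC 0.11 and 0.17, so that these stood on the called side in each line with a smaller fold. For KLHL36 the further probe sets gave 0.10 and 0.38 in SKOV-3 and 0.10 and -0.81 in Caov-3, so that the fall was matched by 1 of 2 in Caov-3 and by 0 of 2 in SKOV-3. Why probe sets of a gene differed was not tested.

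**Figure D4:**
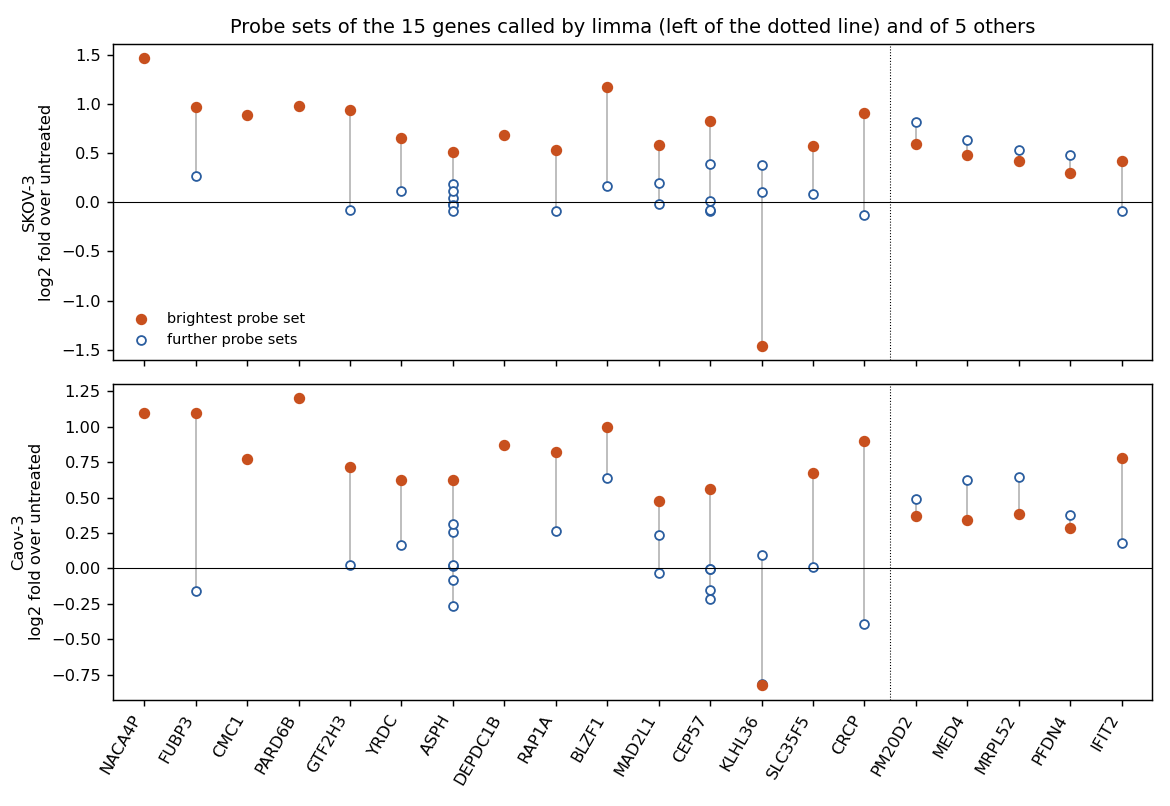
Log2 fold of siltuximab plus IL-6 over untreated for each probe set above the array median, SKOV-3 above and Caov-3 below, for the 15 genes called by limma in order of p and, right of the dotted line, for PM20D2, MED4, MRPL52, PFDN4 and IFIT2. Filled points are the brightest probe set and open points further ones, most of which lie near 0 for the called genes but at or above the filled point for PM20D2, MED4, MRPL52 and PFDN4.

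Of the 44 genes past 1.5-fold in one direction in each line, 14 had a second probe set above the median. It lay on the same side in both lines in 2 of the 7 higher and 1 of the 7 lower genes, and in 0 of the 14 did it reach 1.5-fold in both. The share on the same side was 21.4% of the 14, against 28.4% of the 5270 genes.

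Agreement over all probe sets picked out other genes, with smaller folds. Of 5268 genes with 2 or more probe sets above the median (2 of the 5270 did not pass by their brightest probe set and were left out), 289 (5.49%) had all of them higher in both lines and 337 (6.4%) all lower, and 0 had all at 1.5-fold in either direction. Genes named below were chosen from those with all probe sets on the same side, by their weakest fold. The agreement of their probe sets was thus set by the choice and is no support for them. The highest by its weakest fold was MRPL52, of the mitochondrial ribosome. It read 1744 in SKOV-3 and 1490.1 in Caov-3 with siltuximab plus IL-6, against 1298 in SKOV-3 and 1140.01 in Caov-3 untreated, by its brightest probe set. The second gave 158.1 in SKOV-3 and 134.1 in Caov-3 treated, against 104.5 in SKOV-3 and 79.5 in Caov-3 untreated, so that all 4 folds lay between 0.38 and 0.65.

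PM20D2, a peptidase-like enzyme, had folds of 0.59 and 0.37 by one probe set and 0.82 and 0.49 by the other, in SKOV-3 and Caov-3. MED4, of the Mediator complex that links transcription factors to RNA polymerase II, had 0.48 and 0.34 by one and 0.63 and 0.62 by the other. The prefoldin subunit PFDN4, which hands new actin and tubulin to their folding machine, had 0.30 and 0.29, and 0.48 and 0.38. PIGO, of membrane anchor synthesis, the zinc finger gene HIVEP3 over 3 probe sets, the trafficking gene AP1AR and the clock gene PER3 had a weakest fold of 0.23 to 0.26. None of these 8 passed the limma test, the smallest adjusted p being 0.106 for PM20D2.

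On the lower side the non-coding LINC01128 was at -0.35 and -0.54 by its brightest probe set and at -0.87 and -0.52 by the second. EXTL3, of heparan sulfate synthesis, had -0.57 and -0.60, and -0.46 and -0.33. GAPDH, the glycolytic enzyme used as a loading reference, read 30174 in SKOV-3 and 39204 in Caov-3 with siltuximab plus IL-6, against 42288 in SKOV-3 and 47621 in Caov-3 untreated, and its 3 probe sets gave -0.49 to -0.58 in SKOV-3 and -0.28 to -0.39 in Caov-3. TMEM198B, ERVK13-1, TMEM242, the zinc finger gene ZNF512 and the kinase PRKCQ had a weakest fold of -0.27 to -0.32. Of the 8, none passed the limma test.

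Over all genes, against which the lists below are set, 26.9% were higher and 32.4% lower in both lines, and 6.16% were higher and 6.41% lower at an unadjusted p under 0.05. Of 18 IL-6 receptor and signalling genes above the filter, 2 were higher in both lines and 8 lower, and limma called 0, with 1 higher and 2 lower at an unadjusted p under 0.05. IL6ST, the shared receptor chain, read 7378 in SKOV-3 and 3737 in Caov-3 with siltuximab plus IL-6, against 8466 in SKOV-3 and 4206 in Caov-3 untreated, log2 folds of -0.20 and -0.17, which the mean of all its probe sets turned to a difference of 0.12 over both lines. JAK1, the kinase bound to it, had -0.33 and -0.11, and JAK2 -0.73 and 0.30. IL6 itself had -0.52 and -0.02. IL6R lay below the filter.

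The folds of the lines also lay apart in STAT3. It read 1463 in SKOV-3 and 1254 in Caov-3 with siltuximab plus IL-6, against 1330.1 in SKOV-3 and 2521 in Caov-3 untreated. The treated Caov-3 array was the lowest of the 4, while the SKOV-3 arrays were close, giving log2 folds of 0.14 in SKOV-3 and of -0.998 in Caov-3. The second probe set gave -0.17 and -0.95 and the third 0.03 and 0.08, so that 2 of 3 probe sets were low in Caov-3. The limma adjusted p over both lines was 0.444, and the difference between the lines was not tested, since each line has 1 array a group.

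Early genes that respond to IL-6 and STAT3 had medians of -0.10 in SKOV-3 and of -0.05 in Caov-3 over 19 genes, with 3 higher in both lines and 10 lower. Limma called 0 of them, with 0 higher and 2 lower at an unadjusted p under 0.05. SOCS3, the feedback inhibitor, read 1321 in SKOV-3 and 625.4 in Caov-3 with siltuximab plus IL-6, against 1159 in SKOV-3 and 593.7 in Caov-3 untreated. Its folds were 0.19 and 0.07 by this probe set, -0.33 and -0.36 by the second and 0.53 and -0.09 by the third, and the mean of all its probe sets turned the difference over both lines to -0.09. The AP-1 gene JUNB was at 0.15 and 0.45, FOS at -0.18 and -0.16, the kinase PIM1 at -0.23 and -0.64, CEBPD at 0.01 and -0.08 and MYC at -0.22 and -0.04. The mean of all probe sets turned CEBPD to 0.14.

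STAT3 survival and growth targets had medians of -0.06 in SKOV-3 and of 0.01 in Caov-3 over 12 genes, with 3 higher in both lines, 4 lower and 0 called by limma (1 higher and 0 lower at an unadjusted p under 0.05). CCND1, a cyclin of the G1 phase, read 4559 in SKOV-3 and 2584 in Caov-3 with siltuximab plus IL-6, against 4085 in SKOV-3 and 1958 in Caov-3 untreated, log2 folds of 0.16 and 0.40. The survival gene MCL1 had -0.13 and 0.01, and its difference of -0.06 over both lines was 0.05 with the mean of all its probe sets. Immediate early genes had medians of -0.12 and 0.03 over 25 genes, with 6 higher in both lines, 10 lower and 0 called by limma (0 higher and 2 lower at an unadjusted p under 0.05). NF-kB targets had medians of -0.03 and 0.07 over 17 genes, with 5 higher in both lines, 5 lower and 0 called (2 higher and 1 lower unadjusted). Among the NF-kB targets the mitochondrial superoxide dismutase SOD2 was at 0.37 and 0.56 (limma adjusted p 0.192).

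Interferon-stimulated genes divided by line. Of 37 above the filter, 23 were higher in Caov-3 and lower in SKOV-3 and 0 the other way round, while 9 were higher in both and 5 lower in both. Over all genes 22% were higher in Caov-3 and lower in SKOV-3. The list had a median of 0.11 in Caov-3 and -0.11 in SKOV-3, where all genes had -0.0045 and -0.02, and these medians stayed between 0.11 and 0.13 in Caov-3 and between -0.11 and -0.08 in SKOV-3 under the alternative settings. Of 18 members with a second probe set above the median, that probe set was higher in Caov-3 and lower in SKOV-3 in 10 and the other way round in 1, with medians of 0.19 in Caov-3 and -0.04 in SKOV-3. None of the 37 passed the limma test over both lines, the smallest adjusted p being the 0.0742 of IFIT2, and 2 were higher and 4 lower at an unadjusted p under 0.05. The difference between the lines was not tested.

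TRIM22, an antiviral ubiquitin ligase, showed the pattern most. It read 3198 in Caov-3 and 2947 in SKOV-3 with siltuximab plus IL-6, against 1906 in Caov-3 and 3059 in SKOV-3 untreated, log2 folds of 0.74 in Caov-3 and -0.05 in SKOV-3. IFI27, induced by interferon alpha, was at -0.14 in Caov-3 and -0.36 in SKOV-3, and RSAD2, which makes an antiviral nucleotide, at -0.10 and -0.46 (its difference over both lines was 0.08 with the brightest probe set chosen over the 4 arrays). The members IFI6 (0.50 and -0.19), OAS2 (0.49 and -0.11) and IFIT3 (0.32 and -0.04, Caov-3 first), induced by the same cytokines as IFIT2, were picked after their values were seen.

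**Figure D5:**
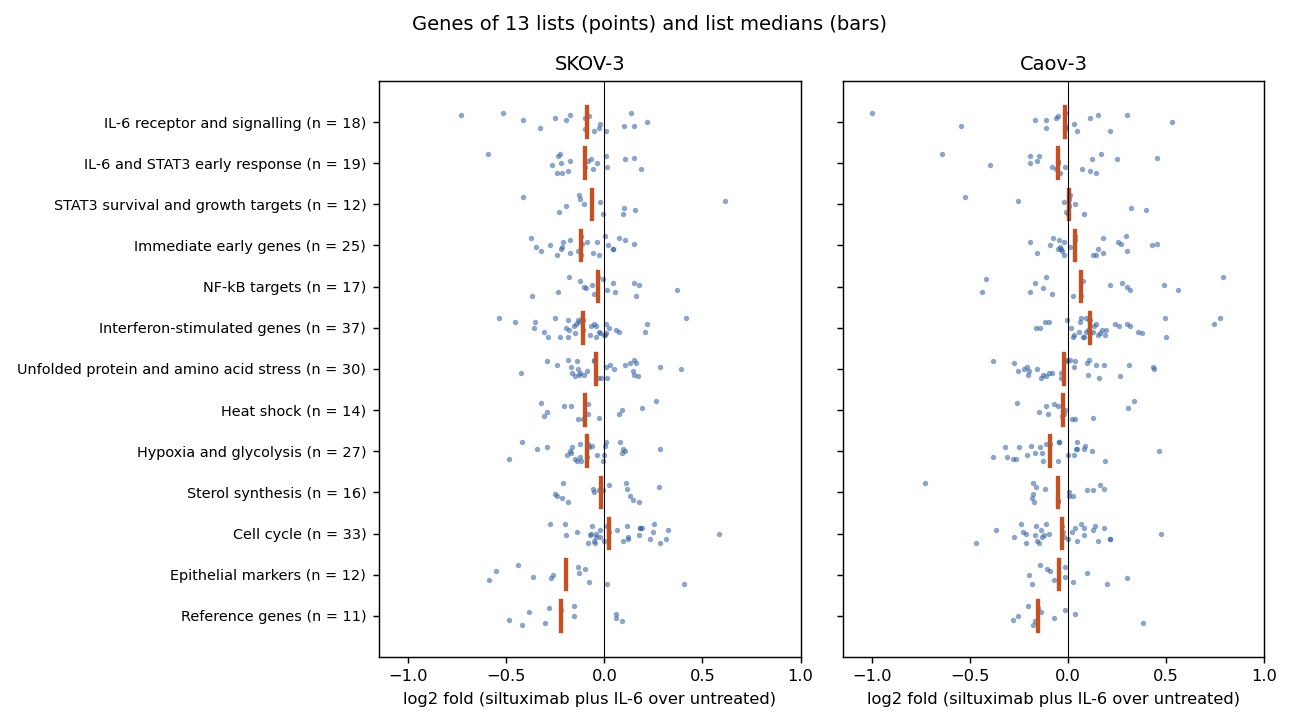
Log2 folds, siltuximab plus IL-6 over untreated, for the members of 13 gene lists (points) in SKOV-3 (left) and Caov-3 (right), with the median of each list as an orange bar and the number of members above the filter in brackets. The median of the interferon-stimulated genes lies left of 0 in SKOV-3 and right of 0 in Caov-3, and that of the reference genes left of 0 in both.

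Stress genes other than XBP1 lay on either side. Genes of unfolded protein and amino acid stress had medians of -0.04 in SKOV-3 and of -0.02 in Caov-3 over 30 genes, with 9 higher in both lines, 13 lower and 0 called by limma (2 higher and 2 lower at an unadjusted p under 0.05). CALR, a calcium-binding chaperone of the endoplasmic reticulum, read 5678 in SKOV-3 and 7154 in Caov-3 with siltuximab plus IL-6, against 4664 in SKOV-3 and 5289.7 in Caov-3 untreated, and its treated arrays were both above both untreated ones. Its folds were 0.28 and 0.43 (limma adjusted p 0.11), and its other 2 probe sets were also higher in both lines, at 0.05 and 0.45 and at 0.08 and 0.26. The chaperone factor SDF2L1 was at -0.43 and -0.10. The heat shock gene HSPD1 was at -0.29 and -0.15. Heat shock genes had medians of -0.10 and -0.03 over 14 genes, with 2 higher in both lines, 7 lower and 0 called (1 higher and 3 lower unadjusted), the cytosolic chaperone HSP90AB1 being at -0.32 and -0.26.

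Hypoxia and glycolysis genes had medians of -0.09 in SKOV-3 and of -0.09 in Caov-3 over 27 genes, with 4 higher in both lines, 14 lower and 0 called by limma (0 higher and 5 lower at an unadjusted p under 0.05), where all genes had 32.4% lower in both lines and 6.41% lower at that p. LDHA, which makes lactate, was at -0.29 and -0.25. LDHA and GAPDH, also of this list, were in the brightest of the 10 expression groups. Of the 1076 genes in that group, 49.3% were lower in both lines and 197 lower at that p. Sterol synthesis genes had medians of -0.02 and -0.05 over 16 genes, with 3 higher in both, 5 lower and 0 called (0 higher and 2 lower unadjusted), and with SREBF2, the transcription factor of the pathway, at -0.21 and -0.73. Cell cycle genes (33) had medians of 0.02 and -0.03, with 13 higher in both, 14 lower and 1 called (3 higher and 3 lower unadjusted). Over all genes limma called 0.139%. The cell cycle gene called was MAD2L1. It read 10113 in SKOV-3 and 5498 in Caov-3 with siltuximab plus IL-6, against 6749 in SKOV-3 and 3951 in Caov-3 untreated, while its second probe set gave 0.20 and -0.03 and the third -0.02 and 0.23.

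Lineage lists held 0 limma calls, with 1 to 2 genes of a list lower and 0 to 1 higher at an unadjusted p under 0.05, and none for the identity and leukocyte genes. Epithelial genes (12, with 1 higher in both lines and 7 lower) had medians of -0.20 in SKOV-3 and of -0.05 in Caov-3, with CLDN4, a tight junction protein, at 0.41 and 0.20 and the epithelial transcription factor ELF3 at -0.44 and -0.14. Mesenchymal genes (7, with 1 higher and 3 lower) had -0.08 and -0.12, with SPARC, a matrix protein, at 0.25 and 0.26 and the filament protein VIM at -0.28 and -0.26. Identity genes of ovarian carcinoma (5, with 3 higher and 1 lower) had 0.06 and 0.07. The 3 leukocyte genes and the 3 fibroblast and endothelium genes above the filter had medians of -0.44 and -0.14, and of -0.24 and -0.02.

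Reference genes had medians below 0 in both lines. These were -0.22 in SKOV-3 and -0.15 in Caov-3 over 11 genes, with 1 higher in both, 7 lower and 0 called by limma, at a smallest adjusted p of 0.106, and with 0 higher and 6 lower at an unadjusted p under 0.05. Over all genes 32.4% were lower in both lines and 6.41% lower at that p, and in the brightest of the 10 expression groups, which held 8 of the 11, 49.3% were lower in both. Of the 1076 genes in that group, 197 were lower at that p. ACTB read 40613 in SKOV-3 and 45179 in Caov-3 with siltuximab plus IL-6, against 54415 in SKOV-3 and 51158 in Caov-3 untreated, and both treated arrays lay below both untreated ones. After quantile normalization the difference over both lines was 0.01 for ACTB, 0.02 for B2M and 0.03 for PPIA, and the median of the list was 0.02. The difference was also 0.02 for HSPD1, named above as a heat shock gene. The direction of these genes thus depended on the scaling, while that of GAPDH did not turn.

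The IL-6-only arrays were not part of the comparison, but they counted in the choice of the brightest probe set of a gene. With that choice made over the 4 arrays of the comparison, limma called 5 genes against 15, and CEP57 turned to -0.15. Levels by the brightest probe set are thus not independent of the choice, whose part in them was not tested. The IL-6-only levels are given beside the comparison for the genes above. An IL-6-only fold over untreated would share the untreated array with the folds above. Genes called higher were chosen for an untreated array below the treated one, so that a low untreated array was in part set by the choice. The IL-6-only arrays also stood apart in quality, with poly-A controls 1.56 times as bright as untreated for SKOV-3 and 1.51 times for Caov-3, and an ACTB 5' to 3' ratio of 0.668 and 0.494. The part of these in the levels was not tested. CMC1 read 3521 with siltuximab plus IL-6, 3321 with IL-6 alone and 1892 untreated in SKOV-3, and 1777, 1777 and 1032 in the same order in Caov-3. GTF2H3 read 2919, 2958 and 1516 in SKOV-3 and 1906, 1894 and 1154 in Caov-3, and YRDC 3139, 2931 and 1996 in SKOV-3 and 3104, 3092 and 2008 in Caov-3. By these probe sets the arrays with IL-6, with or without the antibody, were alike in the 3 genes and the untreated array was the low one. The second probe set of GTF2H3 read 1266, 1802 and 1341 in SKOV-3 and 1069, 299.7 and 1051 in Caov-3, in the same order. That of YRDC read 1674, 1949 and 1549 in SKOV-3 and 1551, 1392 and 1378 in Caov-3. These second probe sets thus did not repeat the pattern.

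By the brightest probe set, most other called genes were likewise lowest in the untreated array of each line, which the choice of genes in part set. The share of all genes with this pattern was not counted. DEPDC1B read 2315 with siltuximab plus IL-6, 2200.0 with IL-6 alone and 1435 untreated in SKOV-3, and 1366, 1310.4 and 739.2 in the same order in Caov-3. ASPH read 10193, 11220 and 7155 in SKOV-3 and 4036, 4024 and 2612 in Caov-3, and RAP1A 3488, 3258 and 2406 in SKOV-3 and 4623, 4260 and 2614 in Caov-3. PARD6B, CEP57, SLC35F5, BLZF1, FUBP3 and MAD2L1 also had the untreated array lowest in each line, with the IL-6-only array above the treated one in both lines for SLC35F5, FUBP3 and MAD2L1. The second probe set had the untreated array lowest in each line for SLC35F5 and BLZF1, but not for ASPH, RAP1A, CEP57, FUBP3 or MAD2L1. That of ASPH read 6409, 5769 and 6479 in SKOV-3 and 2881, 2994 and 2845 in Caov-3, in the order above. PARD6B and DEPDC1B had no second probe set above the median.

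Of the 15 called genes, NACA4P, CRCP and KLHL36 stood otherwise. NACA4P read 11667 with siltuximab plus IL-6, 19946 with IL-6 alone and 4221 untreated in SKOV-3, but 7519.7, 1158 and 3505 in the same order in Caov-3. CRCP read 1106, 958.4 and 583.5 in SKOV-3 and 718.1, 302.7 and 377.4 in Caov-3. KLHL36 was highest untreated, at 487.3, 513.5 and 1369 in SKOV-3 and 689.9, 948.9 and 1235 in Caov-3. IFIT2 read 6159, 5724 and 4618 in SKOV-3 and 4539, 3653 and 2644 in Caov-3, and XBP1 1448, 1571 and 1102 in SKOV-3 and 2877, 3415 and 2121 in Caov-3, so that the IL-6-only array of IFIT2 lay between the others and that of XBP1 above both.

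Promoter base composition and gene length were not used in the choice of genes. Promoter GC content had a median of 64.67% over 15 higher genes and 60.33% over 17 lower genes, against 65.67% over 8893 genes above the filter. Gene span had a median of 35.8 kb over the 20 higher genes and 23.9 kb over the 24 lower genes, against 29.4 kb over all. Across genes, fold and promoter GC correlated at a Spearman coefficient of -0.02 in SKOV-3 and of 0.0126 in Caov-3.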

How the data were processed

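RNA of 2 ovarian carcinoma lines was read on 4 of the 6 arrays of the series, 1 a group. The deposited numbers are linear signal intensities, 1 a probe set, made with Affymetrix Expression Console and MAS5 per the submitters' processing notes (versions not given in the sources used here). No detection calls were used, and no dates or batches were given in the sources used here. Of 54675 probe sets, 62 were controls, 41091 had 1 gene symbol in the array annotation, 1801 several and 11721 none. By gene identifier, 41037 were matched to current records, with 0 symbols changed. Groups came from sample titles.

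Intensities were taken to log2 after adding 17.06, the 20th percentile of the values, with no further normalization. A gene was read by the probe set of highest mean over the 6 arrays, since a gene filter and choice blind to treatment was sought. Genes whose mean in a line reached the mean of the array medians in both lines were kept. Folds within a line have no test. Over both lines, limma 3.58.1 (R 4.3.3) was fitted to the 4 arrays with line and treatment and a trended prior, leaving 1 residual degree of freedom, with Benjamini-Hochberg adjustment over all genes. The script was tested on simulated data. Robust SD is the median absolute deviation times 1.4826. Other steps used Python 3.11.15, numpy 2.4.6, scipy 1.17.1, matplotlib 3.10.9 and pandas 2.3.3. Alternatives changed the pseudocount, filter, normalization, choice of probe set, trend, block, arrays and fold limit.

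Members, lists and tests were chosen with earlier results of these data known. Genes named were IFIT2 and XBP1, the 12 each way whose smaller fold was largest, the 8 in each direction whose weakest probe set was farthest from 0, 4 members a list by largest mean fold, genes called by limma, the 6 of each orientation most opposite between lines, genes of the IL-6 pathway and the 3 on each side of the fold limit. Other names were added after their values were seen. Some pathway genes were not analysed here.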

Additional observations from a re-analysis of the deposited data

Results flagged for a closer look

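Some genes stood at least 1.5-fold above untreated in one line and 1.5-fold below it in the other. With 1 array a group in each line, these differences were not tested, and most of these genes lay in the dimmest of the 10 expression groups, which held 26 of the 32. Higher in Caov-3 and lower in SKOV-3 were NPM2, an egg and early embryo histone chaperone, with a log2 fold in Caov-3 minus SKOV-3 of 4.27, the pseudogene GTF2IP20 at 3.33, the globin gene HBB at 2.35, ATF6B, a relative of a sensor of unfolded proteins, at 2.08, the proline pathway enzyme ALDH4A1 at 1.99 and LOC101927143 at 1.70. NPM2 read 238.6 in Caov-3 and 25.3 in SKOV-3 with siltuximab plus IL-6, against 53.6 in Caov-3 and 208.8 in SKOV-3 untreated. Lower in Caov-3 and higher in SKOV-3 were CEBPA-DT at -1.95, SLC35E3 at -1.92, the centrosomal CEP162 at -1.82, GPR20 at -1.59, the kinesin STARD9 at -1.57 and the T-cell adaptor LIME1 at -1.55.

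Interferon-stimulated genes as a list stood above 0 in Caov-3 and below it in SKOV-3, with medians 0.22 apart, and this difference was not tested.

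Among 3835 probe sets above the filter without a single gene symbol, which the gene counts leave out, 19 (0.495%) stood above untreated by 1.5-fold or more in both lines and 26 (0.678%) stood below it by as much. For these there is no replicate check.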

How the results depend on the processing

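With 1 array a group, a call rested more on the prior variance (7.98 degrees of freedom) than on the arrays (1). Against 14 genes higher and 1 lower, limma called 0 and 0 with all 6 arrays, without the trended prior, without line as a block, without a filter and after quantile normalization (smallest adjusted p of 0.484, 0.539, 1, 0.0624 and 0.0534, with 659, 983, 15, 1719 and 1195 genes at an unadjusted p under 0.05). It called 2 and 0 with a pseudocount of 1, 5 and 0 with the brightest probe set over the 4 arrays, 4 and 0 when all probe sets were averaged, 27 and 1 with a 75th percentile filter, and 85 and 19 with a pseudocount at the median. All of the 15 genes tested kept their direction in every setting except CEP57, at -0.15 with the brightest probe set over the 4 arrays, and RAP1A, at -0.15 when all its probe sets were averaged. The cause was not tested.

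Against 20 genes higher, 24 lower and 32 opposite at 1.5-fold, there were 12, 3 and 2 with a 75th percentile filter, 262, 538 and 643 with no filter, 12, 4 and 6 with a pseudocount at the median, and 1, 1 and 2 at a 2-fold limit. Averaging all probe sets left 12 higher, and requiring all 4 arrays at the median left 15 lower and 14 opposite. Agreement of second probe sets was 30.5% with the 75th percentile filter, against 28.4%.

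Differences over both lines turned with quantile normalization for ACTB (0.0088), B2M (0.0165), HSPD1 (0.0249) and PPIA (0.026), when all probe sets were averaged for ARID1A (0.0522), AURKB (-0.12), CEBPD (0.14), CENPF (0.30), EGR1 (0.18), IL6ST (0.12), MCL1 (0.0453), SMAD4 (-0.0392) and SOCS3 (-0.0904), with the brightest probe set over the 4 arrays for RSAD2 (0.0757), and when probe sets of the _x_at and _s_at kinds were left out for GPR173 (-0.12), IDI1 (0.24), MCL1 (0.14) and NSDHL (0.18). Beside these and CEP57 and RAP1A, given above, no other of the 136 genes named turned. The arrays were paired by line, which was the block of the limma fit, and the samples carry no replicate numbers.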
